A study of Rattus norvegicus with 9 samples.

Results

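Erastin was set against no treatment in PC12 cells, a rat pheochromocytoma line used as a neuron-like model, by RNA sequencing. The comparison covers every transcript that passed a filter on low counts in these 6 libraries alone, which left 16524 of the 41078 Ensembl rat transcripts in the table. The series holds 9 libraries in 3 groups, and the 3 untreated and 3 erastin libraries are used here. Both groups are wild-type PC12 cells, labelled WT, and differ in the label only by erastin. The remaining group, erastin with PQR NPs, enters 1 alternative fit and nothing else. The labels state neither the dose nor the duration of erastin, nor whether replicates are separate cultures; p-values here reflect only the spread between these libraries, which may be technical.

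Erastin blocks the cystine/glutamate antiporter of the cell surface. Cystine is the usual source of the cysteine from which cells make glutathione, and glutathione is the substrate with which the peroxidase GPX4 clears lipid peroxides from membranes. Cells that lose this supply can die by ferroptosis, a form of death that needs iron and lipid peroxidation. PC12 cells make and store catecholamines, like the chromaffin cells of the adrenal medulla from which they derive. The table gives transcript IDs without gene names, and 0 of the 41078 IDs were found in the RefSeq tables of the GRCr8 assembly used here. None of the 238 entries of 15 gene lists (glutathione synthesis, iron handling, stress response, chromaffin markers and others) could therefore be placed. The PC12 identity of the cells was not checked against markers, and no sequence is shown. The response is described by transcript, by size, by level and by share of the counts.

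The libraries were of similar depth. Controls held 37520642 to 39140041 counts and erastin libraries 34772755 to 37170587. Transcripts with at least 1 count numbered 19445, 19548 and 19740 in controls and 20422, 20801 and 20864 with erastin. The groups did not overlap although the erastin libraries were the shallower ones, and the excess of 1118 with erastin was 1195 with all libraries thinned to the smallest total. The exact permutation p (two-sided) was 0.1, the smallest that 3 against 3 allows, and 0.16 after Benjamini-Hochberg adjustment over 8 such library measures. A count in any of the 6 libraries was seen for 24370 transcripts. Of these, 397 were counted in every erastin library and in no control, and 90 in every control and in no erastin library. Only 58 of the 397 and 14 of the 90 passed the filter, and the others were too low to be tested. Within a group, Pearson's r of log2 CPM (counts relative to the scaled library total) across transcripts, which are not independent replicates, was 0.939 to 0.947 for controls and 0.937 to 0.942 for erastin. Between groups it was 0.85 to 0.878.

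Relative to the scaled library totals, about as many transcripts rose as fell with erastin, and the rises were larger. Of the 16524 tested, 8478 changed (51.3%) at the threshold of 0.05 for the Benjamini-Hochberg adjusted p of edgeR's quasi-likelihood test, and 5840 (35.3%) at 0.01. Of these, 4332 were higher with erastin (26.2% of those tested) and 4146 lower (25.1%). Rises had a median of 2.42-fold and falls one of 1.86-fold. At 2-fold or more, 2754 rose (16.7%) and 1779 fell (10.8%). Rises made up 51.1% of the calls, but 48.7% under upper quartile scaling, where falls were the larger part. The scaling sets the level that counts as no change. The near-equal numbers therefore depend on it and do not show that the response was balanced. At 2-fold or more, rises still led under upper quartile scaling, with 2632 against 1893 falls. Without 1 library at a time the count of changed transcripts was 7131 to 8212.

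**Figure D1:**
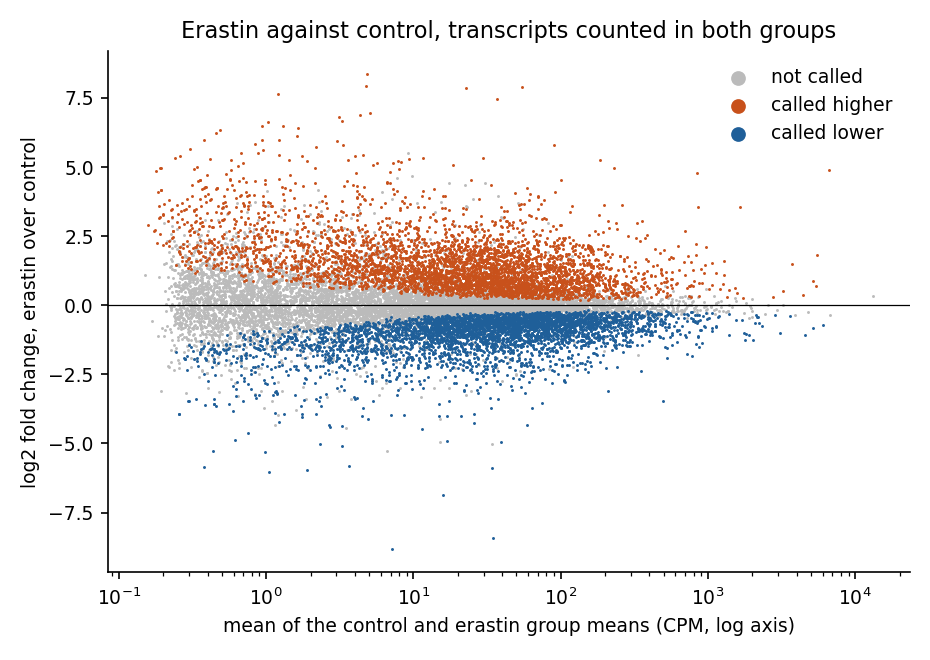
Log2 fold change of erastin over control (vertical axis) against the average level of both groups in CPM (horizontal log axis), 1 point per tested transcript with counts in both groups. Orange points were called higher, blue points lower and grey points not called at an adjusted p of 0.05; the orange cloud reaches farther from 0 than the blue one, most of all at low levels.

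The excess of rises lay in the large changes. Among the falls, 967 were under 1.5-fold (23.3%) and 1400 between 1.5- and 2-fold (33.8%), against 553 (12.8%) and 1025 (23.7%) of the rises. From 4- to 8-fold there were 634 rises and 269 falls, and from 8- to 16-fold 232 rises and 66 falls. At 16-fold or more there were 150 rises and 36 falls, with a group at 0 in all its libraries set at a floor of 3 counts per library. When each transcript was tested for a change beyond 1.5-fold rather than for any change, edgeR called 4575 (27.7%), of which 2578 were rises (15.6%) and 1997 falls (12.1%). Beyond 2-fold it called 2132 (12.9%), of which 1365 were rises (8.26%) and 767 falls (4.64%).

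**Figure D2:**
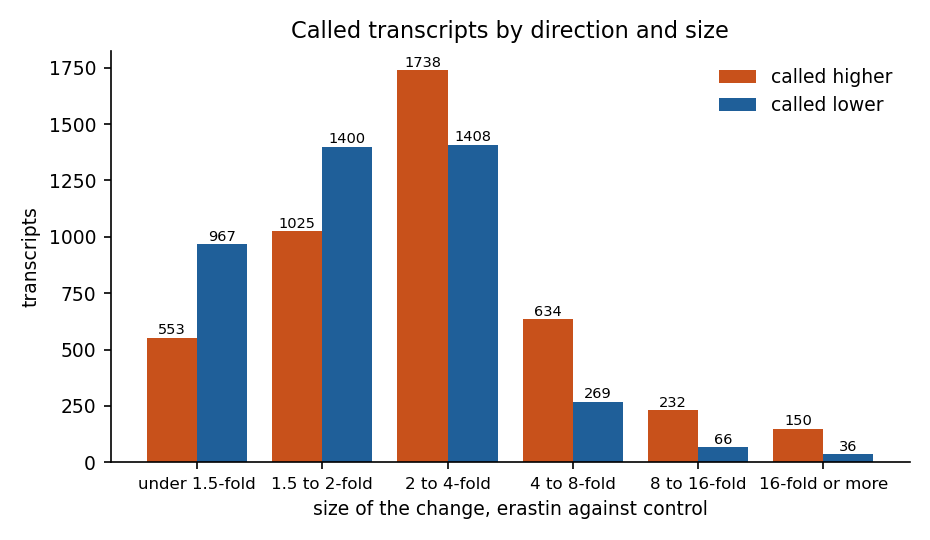
Number of called transcripts (vertical axis) by size of the change between erastin and control (horizontal axis), with rises in orange and falls in blue. Falls outnumber rises below 2-fold, with 967 against 553 and 1400 against 1025, and rises outnumber falls in each larger class.

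The libraries of the groups were clearly apart for many of these transcripts. To describe this without the model, the lowest library of the higher group was set against the highest library of the lower group, over the 14153 transcripts with 10 counts or more in each of the 6 libraries. Every erastin library lay at least 2-fold above every control for 1237 of them (8.74%), and at least 2-fold below for 851 (6.01%). A gap of 4-fold or more was seen for 218 upward (1.54%) and 109 downward (0.77%), and one of 8-fold or more for 46 and 17. Of all transcripts tested, the groups did not overlap at all for 10441 (63.2%), of which 8439 were called and 2002 were not. Of the called transcripts, 39 had groups that overlapped.

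The direction of change differed by level. Transcripts were placed by the average of their mean CPM in each group, which is not corrected for transcript length. The tiers of under 1, 1 to 10, 10 to 100, 100 to 1000, and 1000 CPM or more held 2245, 4479, 7666, 2047 and 87 tested transcripts. Of these 24.9%, 39.8%, 61.4%, 67.4% and 58.6% were called, against 51.3% of all tested. Under 1 CPM, 403 rose and 157 fell, so that rises were 72.0% of the calls. From 1 to 10 CPM 1030 rose and 752 fell (57.8% rises), and from 10 to 100 CPM 2318 rose and 2387 fell (49.3%). From 100 to 1000 CPM falls led, with 559 rises and 821 falls (40.5% rises). At 1000 CPM or more 22 rose and 29 fell (43.1%). The median rise shrank from 6.51-fold under 1 CPM to 3.01-fold, 2.07-fold, 1.88-fold and 1.64-fold in the tiers above. The median fall went from 3.58-fold to 2.50-fold, 1.76-fold, 1.62-fold and 1.66-fold. The median standard error of a log2 fold change was 0.573 under 1 CPM and 0.102 from 100 to 1000 CPM. A small change can therefore be called only in the upper tiers, and the tiers' medians and shares of calls do not rank their responses.

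The transcripts that changed held most of the counts. Those called higher took 16.7%, 17.3% and 18.8% of all counts in the control libraries and 36.9%, 37.7% and 38.3% with erastin, or 17.6% ± 1.09 and 37.64% ± 0.706 (SD, n = 3 each). Those called lower took 46.8%, 45.6% and 44.3% in controls and 26.6%, 26.3% and 25.7% with erastin, or 45.5% ± 1.25 and 26.18% ± 0.463 (SD, n = 3 each). Tested transcripts that were not called took 36.7% ± 0.359 and 36.08% ± 0.3 (SD, n = 3 each). As the test that formed these sets used the same counts, the shares describe the size of the shift and test nothing. Values in CPM are shares of a total, and these counts do not show whether the RNA per cell changed.

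**Figure D3:**
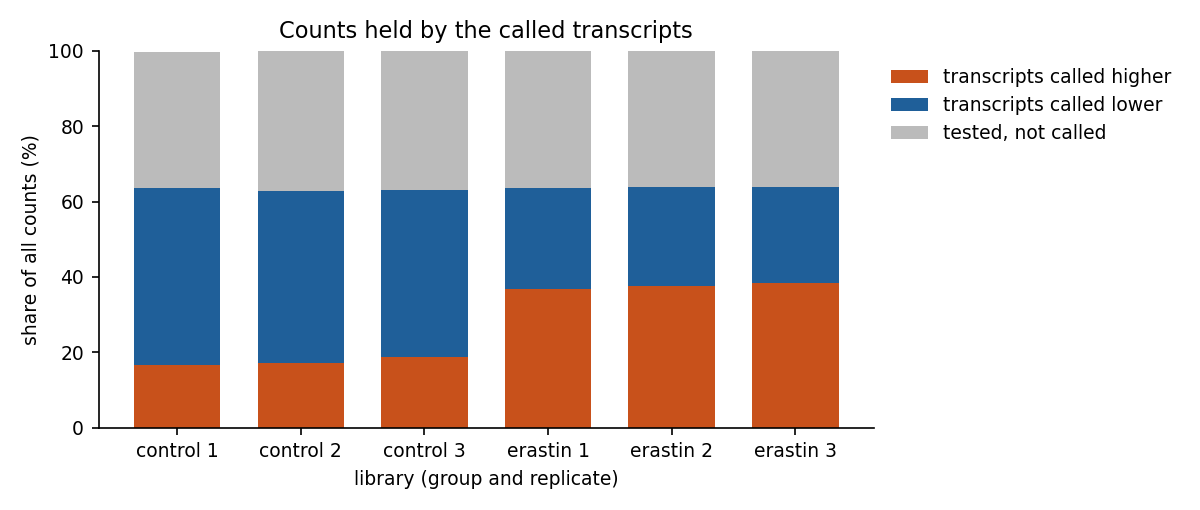
Share of all counts (vertical axis, percent) in each of the 6 libraries (horizontal axis) held by transcripts called higher with erastin (orange), called lower (blue) and tested but not called (grey). The orange part is 16.7% to 18.8% of the control libraries and 36.9% to 38.3% of the erastin libraries.

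The gain was concentrated in fewer transcripts than the loss. Summed over called transcripts, the rises in mean CPM came to 202187 CPM and the falls to 192011 CPM. As CPM are shares of a total, gains and losses largely offset each other by construction, so the closeness of these sums is not a result. The transcript with the largest gain held 6.10% of the gain, the first 10 held 17.74% and the first 100 held 39.5%. For the loss these shares were 1.70%, 10.01% and 30.8%. It took 212 transcripts to hold 50% of the gain or more, and 324 for the loss. The list of abundant transcripts turned over accordingly. Of the 100 with the highest mean CPM in controls, 69 were still among the 100 highest with erastin. Of the 31 that entered, 28 were called higher, 20 of them by 2-fold or more. Of the 31 that left, 27 were called lower, 8 of them by 2-fold or more. Over all tested, 26.2% were called higher and 25.1% lower. Entry and exit were read from the same counts as the calls, so these directions describe the lists and test nothing.

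Among the 20 transcripts with the most counts over the 6 libraries, 8 rose, 6 fell and 6 were not called. Calls covered 51.3% of all transcripts tested and 58.6% of the 87 at 1000 CPM or more. Ranks are by CPM, in which a longer transcript collects more counts, so they do not compare amounts of RNA molecules. The transcript of rank 3 was at 388, 489 and 421 CPM in the control libraries and at 11930, 11770 and 14620 CPM with erastin. Every erastin library was far above every control: the log2 fold change was 4.88 ± 0.136 (standard error, SE), a 29.5-fold rise (edgeR adjusted p 5.5e-05). It is the transcript with the largest gain in CPM. Rank 1, the transcript with the most counts, had 11080, 12400 and 11700 CPM in controls and 12600, 15230 and 16510 CPM with erastin. Rank 1 was not called, with a log2 fold change of 0.33 and an edgeR adjusted p of 0.0705, although its groups did not overlap. Without erastin replicate 1, the lowest of its group, the edgeR adjusted p was 0.0339. Leaving out any other library gave 0.103 to 0.216.

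Other strong rises among the 20 were those of ranks 5, 13 and 6. The transcript of rank 5 was at 2495, 2528 and 2166 CPM in controls and at 10480, 6969 and 8116 CPM with erastin (3.56-fold, edgeR adjusted p 0.00039). Rank 13 went from 2051, 2100 and 1730 CPM to 5912, 5318 and 5262 CPM (2.80-fold, edgeR adjusted p 0.00019). Neither had groups that overlapped, and neither call was lost under any alternative run. Rank 6 had 4126 ± 159 CPM in the control group and 6639 ± 498 CPM in the erastin group (SD, n = 3 each), 1.61-fold more (edgeR adjusted p 0.0015). For rank 8 the erastin libraries were spread widely, at 4310, 7088 and 8561 CPM against 3100, 3811 and 3886 CPM in controls (1.85-fold, edgeR adjusted p 0.027). This call was lost in most fits without 1 library, which also have less power. Leaving out control replicate 1, 2 or 3 gave an edgeR adjusted p of 0.0944, 0.0709 or 0.0549, and leaving out erastin replicate 2 or 3 gave 0.0777 or 0.0816. The log2 fold change of rank 8 was 0.66 to 1.12 without 1 library at a time, against 0.89. Ranks 11, 16 and 20 rose 1.30-, 1.41- and 1.23-fold (edgeR adjusted p 0.014, 0.0069 and 0.039). The call of rank 20 was lost without control replicate 2 or 3 (0.103 and 0.0983) and without erastin replicate 1, 2 or 3 (0.0757, 0.121 and 0.0767), and also under upper quartile scaling (0.069) and with no filter on low counts (0.0721).

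The falls among the 20 were of 2-fold or less, but for that of rank 10. Rank 10 went from 5750, 7145 and 5669 CPM in controls to 2471, 2865 and 3464 CPM with erastin, a log2 fold change of -1.08 (edgeR adjusted p 0.0021). Rank 17 went from 4492, 3956 and 3783 CPM to 2047, 2125 and 1973 CPM, to 0.502 of its control level (edgeR adjusted p 0.00042). In both, the highest erastin library was well below the lowest control. Rank 4 fell to 0.603 of its control level, from 7512 ± 1130 to 4527 ± 360 CPM (SD, n = 3 each; edgeR adjusted p 0.0051). Rank 7 fell to 0.563, from 6030, 7908 and 5949 CPM to 2802, 3793 and 4605 CPM (edgeR adjusted p 0.017), a call lost without control replicate 2 (0.0582) or erastin replicate 2 (0.054). Ranks 14 and 19 fell to 0.761 and 0.779 of their control levels (edgeR adjusted p 0.005 and 0.0067), with close replicates: rank 14 was at 4121, 4079 and 4081 CPM in controls and at 3033, 3189 and 3129 CPM with erastin.

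Beside rank 1, the transcripts of ranks 2, 9, 12, 15 and 18 were not called. Rank 15 had close means in both groups, 3246 ± 382 and 3242 ± 1050 CPM (SD, n = 3 each), and a log2 fold change with a 95% interval of -0.60 to 0.60. Its erastin libraries lay at 2115, 3416 and 4195 CPM, below, among and above the controls. Rank 2 was at 6794, 8830 and 6866 CPM in controls and at 4475, 6024 and 7241 CPM with erastin (edgeR adjusted p 0.20). Rank 12 missed the threshold with an edgeR adjusted p of 0.0596 and passed it without erastin replicate 3 (0.0412). Leaving out any other library gave 0.0799 to 0.172 for rank 12. Rank 9 had 0.18 and passed without erastin replicate 1 (0.036), but not without any other library (0.163 to 0.393). Within the groups these abundant transcripts tended to be high in the same library: control replicate 2 was the highest control for 12 of the 20, and erastin replicate 3 the highest erastin library for 10. The part of this in the calls was not tested.

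**Figure D4:**
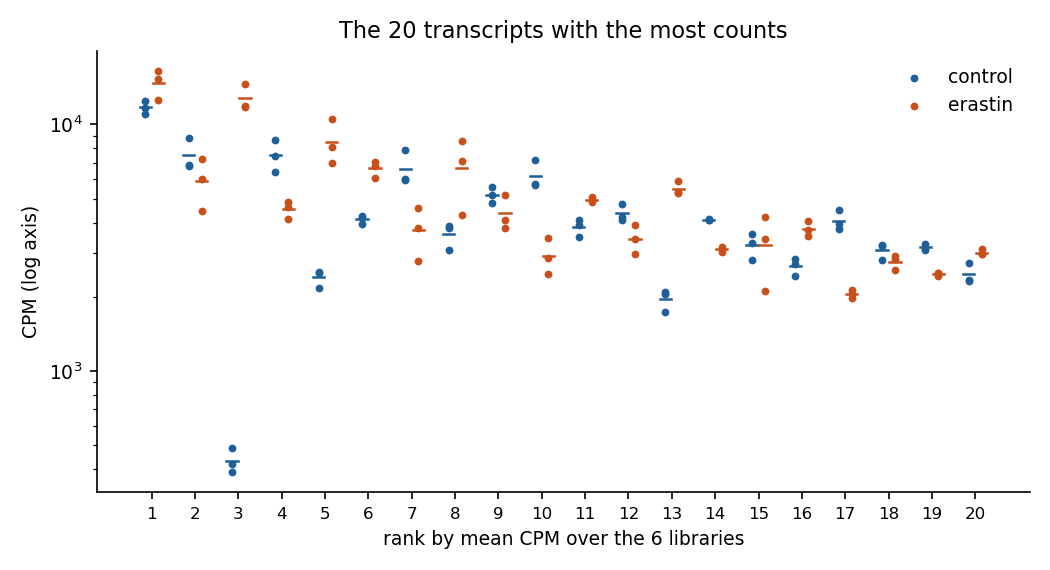
CPM on a log axis of the 20 transcripts with the most counts, ordered by their mean over the 6 libraries (horizontal axis), with 3 control libraries (blue points) and 3 erastin libraries (orange points) each and group means as bars. The transcript of rank 3 stands out, with controls at 388 to 489 CPM and erastin libraries at 11770 to 14620 CPM.

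The largest fold changes were taken from the 7771 called transcripts with 10 counts or more in each library and groups that did not overlap, so that both levels were measured. The 12 largest rises ran from 175-fold down to 22.8-fold, and the 12 largest falls from 31.1-fold to 13.3-fold. Only the first 2 in each direction are given by ID.

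The largest rise is that of 1 library. ENSRNOT00000084155 had 14, 20 and 14 counts in controls and 65, 111 and 7344 with erastin, or 0.374, 0.513 and 0.363 CPM against 1.73, 3.18 and 215.6 CPM. All erastin libraries were above all controls, but erastin replicate 3 held 97.8% of the group's CPM. The log2 fold change was 7.45 ± 1.89 (SE; edgeR adjusted p 0.029). Without erastin replicate 3 it was 2.55 (edgeR adjusted p 0.00776), and without control replicate 1, 2 or 3 the call was lost (0.0961, 0.094 and 0.0884), as it was in limma-voom (0.337). DESeq2 gave this transcript no adjusted p. Over the 14 alternatives that gave one, the adjusted p ran from 0.00776 to 0.337.

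ENSRNOT00000075681, next in size, rose in all erastin libraries alike. It had 124, 145 and 97 counts in controls and 5256, 7203 and 6418 with erastin, or 3.31, 3.72 and 2.51 CPM against 139.7, 206.4 and 188.4 CPM. The log2 fold change was 5.81 ± 0.198 (SE), 56.0-fold (edgeR adjusted p 6.4e-05), and it was called under all 15 alternatives with a log2 fold change of 5.66 to 5.95. The third to eighth rises were of 40.4- to 31.5-fold. Of these, the fifth was uneven, at 0.668, 0.256 and 0.466 CPM in controls and 6.17, 9.86 and 38.3 CPM with erastin, and its log2 fold change of 5.28 was 4.10 without erastin replicate 3 (edgeR adjusted p 0.00294). The ninth is the transcript of abundance rank 3. The tenth had an edgeR adjusted p of 7e-06, with none smaller among the transcripts tested. It was at 58.8, 57.4 and 61.3 CPM in controls and at 1640, 1596 and 1638 CPM with erastin, a log2 fold change of 4.78 ± 0.0656 (SE). The 11th had a log2 fold change of 4.53, and 5.17 without control replicate 3. The 12th was uneven, at 116.9, 2.46 and 21.5 CPM with erastin against 2.43, 1.74 and 2.00 CPM in controls (edgeR adjusted p 0.027). It was no longer called without control replicate 1, 2 or 3 (0.0809, 0.0917 and 0.08) or without erastin replicate 1 (0.0582), where its log2 fold change went from 4.51 to 2.54. In limma-voom it was 3.21 and not called (adjusted p 0.208).

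The 2 largest falls were seen in all libraries at similar size. ENSRNOT00000036951 had 3082, 3096 and 2543 counts in controls and 68, 92 and 98 with erastin, or 82.3, 79.4 and 65.9 CPM against 1.81, 2.64 and 2.88 CPM. It fell by 4.96 ± 0.193 on the log2 scale (SE), 31.1-fold (edgeR adjusted p 6.8e-05). ENSRNOT00000017363 had 1557, 1075 and 1147 counts in controls and 47, 23 and 47 with erastin, or 41.6, 27.6 and 29.7 CPM against 1.25, 0.659 and 1.38 CPM. It fell by 4.91 ± 0.302 on the log2 scale (SE), 30.0-fold (edgeR adjusted p 0.00016). The erastin libraries of both were all more than 10-fold below every control. The third fall had close replicates, at 22.3, 21.1 and 22.2 CPM in controls and 0.931, 1.06 and 0.969 CPM with erastin (22.1-fold, edgeR adjusted p 5.5e-05). Further down, the ninth and 11th falls varied with erastin, at 1.75, 0.630 and 0.704 CPM and at 2.95, 7.97 and 3.17 CPM. Their log2 fold changes of -3.97 and -3.73 were -4.59 without erastin replicate 1 and -4.35 without erastin replicate 2. No call among the 12 falls was lost under any alternative that gave it a value. Each value is of 1 transcript, and the other transcripts of its gene are not in it.

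**Figure D5:**
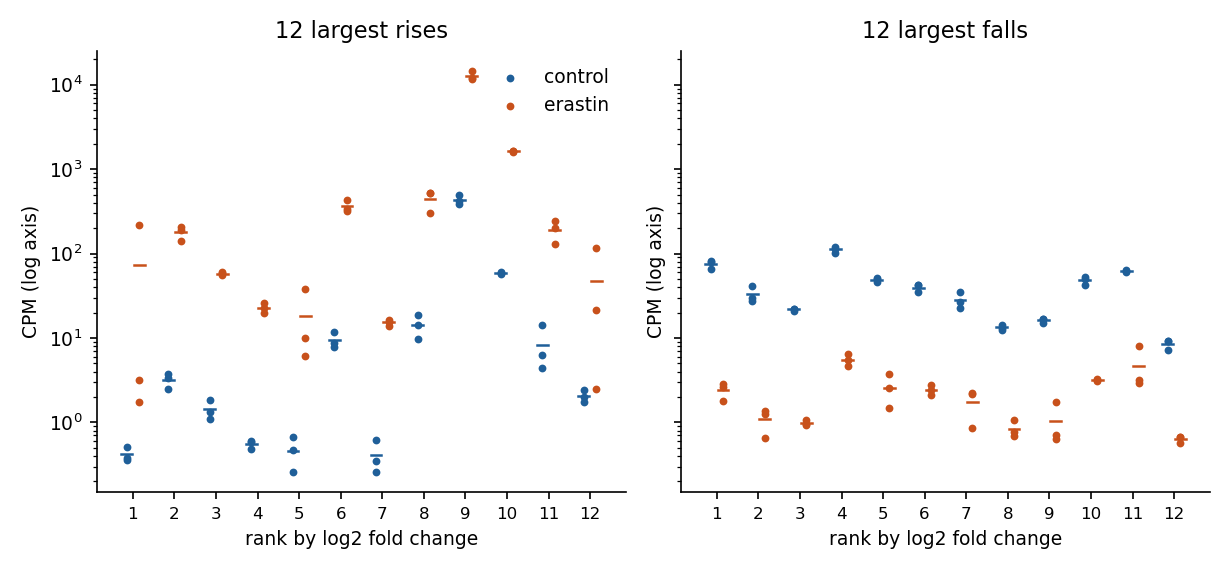
CPM on a log axis of the 12 largest rises (left) and 12 largest falls (right) among called transcripts with 10 counts or more in each library, ordered by log2 fold change (horizontal axis), with 3 control (blue) and 3 erastin (orange) libraries each and group means as bars. The first and 12th rises have erastin libraries spread from 1.73 to 215.6 and from 2.46 to 116.9 CPM.

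A small set of transcripts was counted in 1 group only. Of the tested transcripts 58 were at 0 in every control and 14 at 0 in every erastin library. All 72 were called, but to pass the filter they had to be present in all 3 libraries of the other group, so they had to differ. Most were rare. The median level with erastin of the 58 was 1.04 CPM, 29 were at 1 CPM or more and 7 at 10 CPM or more, up to 321 CPM. The median level in controls of the 14 was 1.24 CPM, 7 were at 1 CPM or more and 3 at 10 CPM or more, up to 43.2 CPM. Against a floor of 3 counts per library, the median was at least 13.3-fold higher for the 58 and at least 14.6-fold lower for the 14.

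Counts of some transcripts switched between libraries of the same group. In controls 85 tested transcripts were at 0 in at least 1 library and at 10 CPM or more in another, and with erastin 88 were (0.514% and 0.533% of those tested). Of these 153 different transcripts edgeR's test called 0, against 51.3% of all tested, and 1 had an unadjusted p under 0.05. The 153 were picked for a wide spread within a group, which the test weighs against the change. The lack of calls therefore follows largely from the choice. DESeq2 also called 0, but it gave an adjusted p to only 16447 of the 16524 tested. A transcript without one counts as not called, and how many of the 153 had one was not counted. Limma-voom called 23 of the 153, and edgeR called 8 to 15 of them without 1 library at a time. The zeros were spread over the libraries, with 37, 29 and 41 in control replicates 1, 2 and 3 and 36, 30 and 37 in the erastin replicates. Separately, 1 library held 80% or more of the group's CPM for 132 transcripts in controls and 117 with erastin, at a group mean of 1 CPM or more. Of the called transcripts, 4 were higher in a group of this kind, 2 of which are the first and 12th rises.

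The spread between replicates was close in both groups. The common biological coefficient of variation, edgeR's estimate of the replicate spread beyond counting error, was 36.6% in controls and 35.2% with erastin over the 16524 transcripts. Over the 14153 with 10 counts or more in each library it was 22.0% and 22.8%. These are descriptions with no test.

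For the 8046 transcripts that were not called, the fit sets limits on the change they may hold. The 95% interval of the fold change lay within 2-fold in either direction for 3950 of them (49.1%), and within 1.5-fold for 2155 (26.8%). Those held within 1.5-fold had a median level of 47.1 CPM. For the other 4096 the interval reached 2-fold or beyond, so a change of that size is not excluded for them. Their median level was 1.51 CPM.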

How the data were processed

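The deposited table holds raw counts, not normalized, of Ensembl rat transcripts (rows) in each library (columns), per the file headers. The submitters' processing notes name the build Rnor 6.0 and HISAT2 2.2.1. What counted the reads, whether strand was used, and how reads were divided among isoforms is not stated there, and a count may move between isoforms, near-identical copies or overlapping transcripts. Poly(A) RNA was sequenced as paired ends, per the labels' protocols.

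The counts of the 3 control and 3 erastin libraries were tested with edgeR 4.0.16 (R 4.3.3, limma 3.58.1) by its quasi-likelihood test, with TMM scaling and its filter (0.268 CPM or more in at least 3 libraries and 15 counts in all). P-values were adjusted by Benjamini-Hochberg over the 16524 transcripts tested. CPM are on TMM-adjusted library sizes, and standard errors and 95% intervals are from the same fit. The script was run on simulated counts with few changed transcripts and the same dispersion for all. These data differ from that, so the run checks the code and not the calls. Floors of 3 counts cover counting error only. No 2 libraries of a group agreed within sampling noise (chi-square per degree of freedom 36.5 to 77.2). Transcripts given by ID are the 2 largest rises and falls among called transcripts with 10 counts or more in each library and groups that do not overlap; those among the 20 of highest mean CPM are described by rank. Members, lists and rules were chosen with earlier results of these data known. Alternatives covered scaling, filter, DESeq2 1.42.0, limma-voom, all 9 libraries, the threshold, the replicate block and leaving out each library. Transcripts of the 15 gene lists were not analysed here, as no ID had a name.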

Additional observations from a re-analysis of the deposited data

How the results depend on the processing

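The 5 counts of changed transcripts (all, higher, lower, and higher or lower 2-fold or more) stayed within 1.5 times their values under every scaling, filter and test planned and without any 1 library. No shared call changed direction in any of these. The count of changed transcripts ran from 5840 at an adjusted p of 0.01 to 9072 with DESeq2, which called 98.5% of the 8478. The counts fell further, by construction, in tests against a minimum fold, an alternative chosen after seeing the data: 4575 changed beyond 1.5-fold, 2578 higher and 1997 lower, and 2132 beyond 2-fold, 1365 higher and 767 lower. Leaving out the transcripts uneven within a group, also chosen after seeing the data, gave 8474.

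The replicate numbers were not taken to pair the libraries, as nothing states that they do. The correlations of same-numbered deviations from the group means were 0.111, 0.0374 and -0.00465 for replicates 1, 2 and 3. Those of different-numbered libraries were -0.104 to 0.0682, so that of replicate 1 was the highest of all. With the replicate number as a block 8126 transcripts were called, 7718 of them among the 8478, and the calls of ENSRNOT00000084155 (edgeR adjusted p 0.117), the 12th rise (0.0908) and abundance rank 20 (0.0646) were lost. Without 1 library at a time, with calls made anew, the transcripts called higher gained 18.06 to 20.5 percentage points of the counts with erastin, against 20.03, and those called lower changed by -19.93 to -17.91 points, against -19.36. The coefficient of variation fell from 36.6% to 22.0% in controls and from 35.2% to 22.8% with erastin when transcripts under 10 counts in any library were left out. Of the transcripts not called, that of rank 1 passed the threshold with DESeq2, limma-voom and the stricter filter (adjusted p 0.0172, 0.0442 and 0.0423), and that of rank 12 with DESeq2, limma-voom, upper quartile scaling, total counts and all 9 libraries (0.0206, 0.0397, 0.0403, 0.0436 and 0.0282). Fitting all 9 libraries together lost the call of the 12th rise (edgeR adjusted p 0.0604). The gene list alternative was not run, as no transcript had a name. Depth limits the rare transcripts: a count of 0 allows 3 counts, a mean of 0.0783 CPM in controls and 0.0846 CPM with erastin.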

Other observations

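Another 7846 transcripts had a count in these libraries but did not pass the filter, and together with those at 0 they took 0.124% ± 0.0286 of the counts in controls and 0.1001% ± 0.0197 with erastin (SD, n = 3 each). Their highest count in any library was 3 or fewer for 3241 of them. At the other end, 116 reached 100 counts or more in a library, and 20 reached 1000 or more, up to 13945. Of the 116, 33 were counted in 1 library only and 55 in 2. The library with the highest count was control replicate 1, 2 or 3 for 20, 18 and 15 of them and erastin replicate 1, 2 or 3 for 18, 23 and 22. Of all 7846, 2523 were counted in erastin libraries only and 1123 in control libraries only.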
